A study of Mus musculus with 90 samples.

Results

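The genes described here are 36 genes of DNA replication and S phase, named in a list of symbols that covers the replicative helicase, origin licensing, the polymerases and their clamp, nucleotide supply, the copying of chromatin and the regulators of entry into S phase. All 36 were among the 18223 genes measured in liver RNA from female Diversity Outbred (J:DO) mice, an outbred stock in which no animal repeats the genome of another. Zileuton, an inhibitor of 5-lipoxygenase, was given by mouth at 300 mg per kg each day over 7 days to 49 animals, and sterile distilled water was given in the same way to 41 animals. All mice were 6 to 20 weeks old and were assigned to groups at random, per the labels. The series title gives toxicity to the liver as the subject, and the comparison asks which liver transcripts differed after 1 dose level and 1 length of dosing.

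A cell copies its DNA once per division. Before S phase the origin recognition complex, Cdc6 and Cdt1 load the ring of Mcm2 to Mcm7 onto DNA, and at the start of S phase Cdc45 and the GINS proteins join the ring and turn it into a working helicase. Transcription of many of these genes is driven by E2F factors, which are released when cyclin-dependent kinases inactivate the retinoblastoma protein. Adult hepatocytes rarely divide, and re-enter the cycle after loss of liver tissue or under mitogens, so that transcripts of S phase are usually scarce in resting liver.

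Each library came from the liver of 1 animal and totals of estimated counts ran from 12664579 to 41360187 (median 25535799). The 10 hepatocyte markers, led by the albumin gene, summed to 77500 to 175000 CPM (counts scaled to library size) in zileuton livers and to 94800 to 189000 CPM in vehicle livers, as in liver tissue. Among the libraries, 3 stood apart in the genes described here. Vehicle replicate 15 was the highest vehicle library in 16 of the 18 members that passed the test, zileuton replicate 4 was the highest zileuton library in 11 of them, and zileuton replicate 7 was the highest zileuton library in 41 of 43 tested genes of mitosis. Vehicle replicate 15 also had the second highest score of clock genes among the vehicle animals, at 2.16 against a vehicle median of −1.58, and vehicle replicate 28 had the highest at 2.62. Vehicle replicates 4, 14 and 37 scored above 0 as well, at 0.68, 0.90 and 0.40. These had 9, 8 and 11 of the 18 members above the vehicle median, against 18 and 16 in replicates 15 and 28. In bulk tissue, fewer cells of a type and less RNA per cell cannot be told apart.

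Part of the replication and S phase transcripts rose in zileuton livers, led by the cyclin gene Ccne1 and the chromatin gene Uhrf1. Of the 36 members, 34 passed the filter on low counts, and 18 of these were called higher (edgeR quasi-likelihood F test, Benjamini-Hochberg adjusted p under 0.05). Among all 13248 genes tested, 14.4% were called higher and 14.8% lower. In the same test 0 members were called lower, with 1 at an unadjusted p under 0.05, and DESeq2 and limma-voom called 0 lower. The median log2 fold change, zileuton over vehicle, was 0.36 over the 34 tested members and −0.0099 over all genes tested. Of the members, 28 lay above 0 and 6 below it. Called members lay between 0.34 and 1.56, and the others between −0.14 and 0.35. At least 2-fold higher were 4 members, Ccne1, Uhrf1, Gins2 and Chaf1b, beside 1.03% of all genes tested. Group ranges overlapped in every member, and in all genes tested (0.0% did not overlap).

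**Figure D1:**
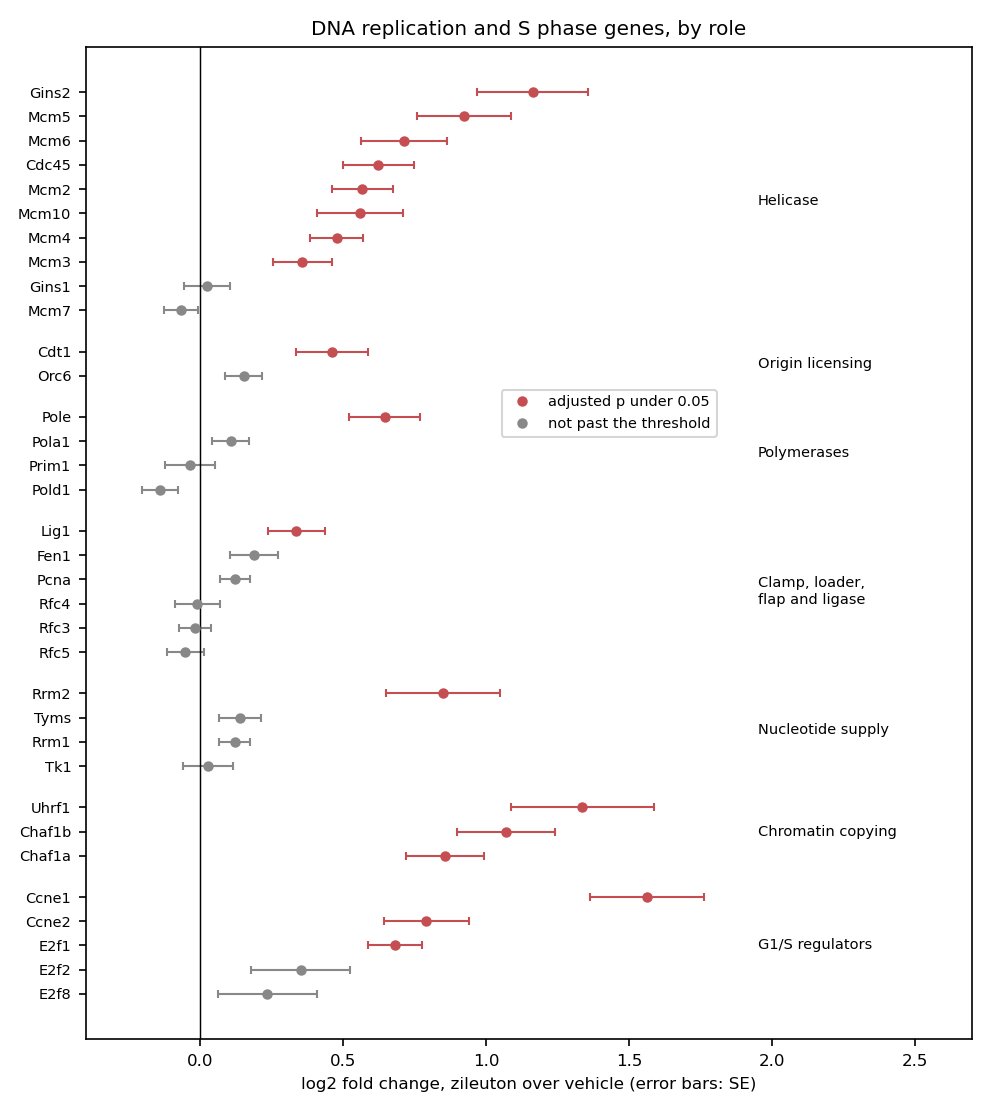
Log2 fold change, zileuton over vehicle, of the 34 tested members by role, with bars of 1 standard error; red points passed an adjusted p of 0.05. The helicase, chromatin and regulator genes hold most of the red points, while Mcm7, Gins1, Pold1 and the Rfc genes lie near 0 or below it.

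The regulators of S phase entry held the member with the largest change. Ccne1, which encodes cyclin E1, the partner of Cdk2 at the start of S phase (chromosome 7, 38097984 to 38107534 on mm10), was at 0.123 CPM in the lowest, 0.671 CPM in the median and 2.47 CPM in the highest zileuton liver, against 0, 0.218 and 0.803 CPM in vehicle livers. Of 49 zileuton animals, 44 lay above the vehicle median and 18 above the highest vehicle animal. Its log2 fold change was 1.56 ± 0.20 (SE, 2.96-fold, edgeR adjusted p = 1.36e-09), on a median of 15 estimated counts per zileuton library and 5 per vehicle library. Ccne2, which encodes cyclin E2, was at 0.179, 0.798 and 1.56 CPM in zileuton livers, against 0, 0.440 and 1.10 CPM in vehicle livers (lowest, median and highest). The groups overlapped, with 9 zileuton animals above all vehicle animals, and the log2 fold change was 0.79 ± 0.15 (SE, edgeR adjusted p = 1.39e-05).

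E2f1, the activating E2F factor (chromosome 2, 154559407 to 154569892), was at 1.76, 3.67 and 7.06 CPM in zileuton livers, against 1.18, 2.07 and 6.11 CPM in vehicle livers. Vehicle replicate 15 alone held the vehicle maximum, since the next vehicle animal was at 3.40 CPM, and 46 of 49 zileuton animals lay above the vehicle median. The log2 fold change was 0.68 ± 0.095 (SE, 1.60-fold, edgeR adjusted p = 1.45e-08). E2f8, an atypical E2F that represses E2F targets, ranged more widely, at 1.65, 6.09 and 15.3 CPM in zileuton livers, against 0.854, 5.15 and 16.7 CPM in vehicle livers. Only 26 of 49 zileuton animals lay above the vehicle median, and E2f8 did not pass (log2 fold change 0.23 ± 0.17 SE, edgeR adjusted p = 0.327). E2f2, a further activating E2F, was at 0.35 ± 0.17 (SE, edgeR adjusted p = 0.122).

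Of the 4 licensing genes, Cdt1 was called higher, Orc6 was not, and the other two were too scarce for the test. Cdt1, which brings the Mcm ring to origins (chromosome 8, 122568015 to 122573554), was at 0.983, 2.96 and 8.33 CPM in zileuton livers, against 0.724, 1.91 and 5.62 CPM in vehicle livers. In 40 of 49 zileuton animals it lay above the vehicle median, and it rose by a log2 fold change of 0.46 ± 0.13 (SE, edgeR adjusted p = 0.00307). Orc6, a subunit of the origin recognition complex, was at 0.15 ± 0.064 (SE, edgeR adjusted p = 0.0612). Cdc6, the loader that works with Cdt1, and Orc1, the largest origin recognition subunit, did not pass the filter. Cdc6 had a median of 6 estimated counts in zileuton livers and 3 in vehicle livers, or 0.246 CPM in zileuton and 0.109 CPM in vehicle livers, and 45 of 49 zileuton animals lay above the vehicle median. For Orc1 the medians were 2 estimated counts in zileuton and 1 in vehicle livers, or 0.0933 CPM in zileuton and 0.0364 CPM in vehicle livers, with 9 zileuton and 16 vehicle animals at 0. With no filter on low counts both were called higher, at log2 fold changes of 1.34 for Orc1 and 1.35 for Cdc6 (edgeR adjusted p = 3.59e-04 and 7.81e-06).

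The helicase genes moved as a group with exceptions. Of 10 tested, 8 were called higher, while Mcm7 and Gins1 were not. Mcm5, a subunit of the ring (chromosome 8, 75109569 to 75128439), was at 0.769, 3.17 and 16.98 CPM in zileuton livers, against 0.812, 1.77 and 6.61 CPM in vehicle livers. The zileuton maximum came from replicate 4 and the vehicle maximum from replicate 15, and 41 of 49 zileuton animals lay above the vehicle median. The log2 fold change was 0.92 ± 0.17 (SE, 1.90-fold, edgeR adjusted p = 5.97e-06). Gins2, a subunit of the GINS complex that holds Cdc45 on the ring (chromosome 8, 120578633 to 120589304), was at 0.295, 0.989 and 4.12 CPM in zileuton livers, against 0, 0.431 and 3.21 CPM in vehicle livers. Only zileuton replicate 7 exceeded vehicle replicate 15, though 46 of 49 zileuton animals lay above the vehicle median, and the log2 fold change was 1.16 ± 0.19 (SE, edgeR adjusted p = 1.28e-06). Gins2 shares 2758 exonic bases with Gse1 on the other strand, and the kit named in the labels does not mark strand, so that reads of the shared bases cannot be told apart. In all, 14 members share exonic bases with a gene on the other strand, among them Ccne2, E2f8 and Mcm7.

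Mcm2, a further subunit of the ring (chromosome 6, 88883474 to 88898780), was at 2.20, 3.85 and 14.8 CPM in zileuton livers, against 1.81, 2.61 and 5.31 CPM in vehicle livers. In 42 of 49 zileuton animals it lay above the vehicle median, and in 11 above all vehicle animals (log2 fold change 0.57 ± 0.11 SE, edgeR adjusted p = 1.67e-05). Mcm6 rose by 0.71 ± 0.15, Cdc45, the protein that switches the ring on, by 0.62 ± 0.12, Mcm4 by 0.48 ± 0.093 and Mcm3 by 0.36 ± 0.10 (log2 fold changes with SE). Mcm10, which acts at origins as the helicase starts, rose by 0.56 ± 0.15 and was the member with the highest single libraries in both groups among the called members, at 56.4 CPM in a zileuton and 55.9 CPM in a vehicle liver. Mcm3 had the weakest test of these genes (edgeR adjusted p = 0.00515).

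Mcm7 did not move with the rest of the ring. It was at 5.19, 9.05 and 17.7 CPM in zileuton livers, against 7.79, 9.96 and 15.1 CPM in vehicle livers, and 16 of 49 zileuton animals lay above the vehicle median. Its log2 fold change was −0.067 ± 0.061 (SE, edgeR adjusted p = 0.431). Per kilobase of exon Mcm7 had the highest medians of the ring genes in both groups, 2.05 CPM per kb in zileuton and 2.25 CPM per kb in vehicle livers, while Mcm2 to Mcm6 had medians between 0.553 and 1.40 CPM per kb in zileuton livers and between 0.375 and 1.08 CPM per kb in vehicle livers. Gins1 had a log2 fold change of 0.023 ± 0.080 (SE, edgeR adjusted p = 0.858), beside 1.16 for its partner Gins2.

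Within each animal, the log2 ratio of a ring gene to Mcm7 was formed with 0.1 CPM added to both values. These pairs were chosen after the values had been seen, so the differences are descriptions without a test. The Mcm5 to Mcm7 ratio averaged −1.56 ± 0.64 in zileuton and −2.42 ± 0.57 in vehicle livers (SD, n = 49 and 41), a difference of 0.86, and 43 of 49 zileuton livers exceeded the median of the vehicle livers. For Mcm6, Mcm2, Mcm4 and Mcm3 over Mcm7 the differences were 0.74, 0.56, 0.51 and 0.38. Gins2 over Gins1 averaged −1.16 ± 0.70 in zileuton and −2.23 ± 0.75 in vehicle livers, a difference of 1.07.

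**Figure D2:**
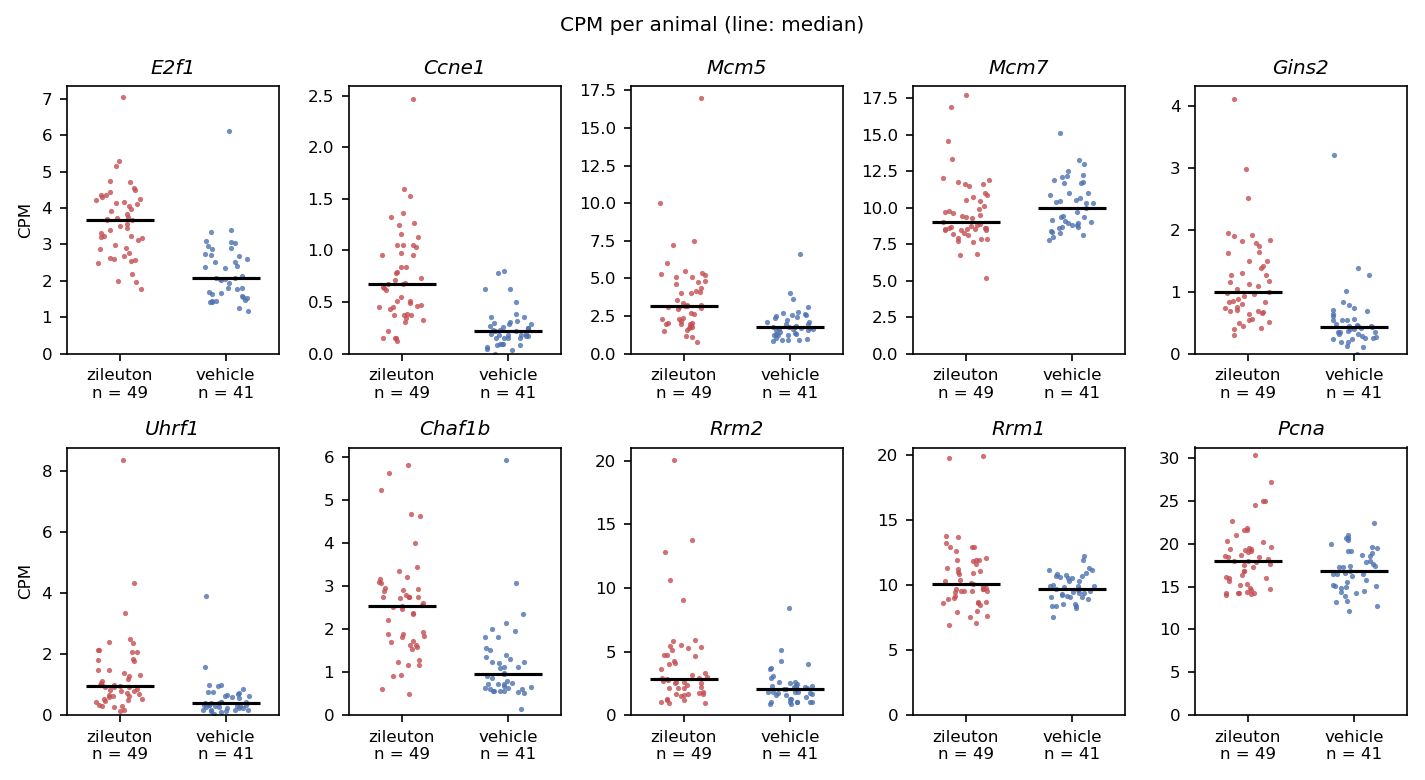
CPM in each animal (points) with the group median (line) for 10 members, zileuton left and vehicle right, on linear axes from 0. The medians stand apart for Ccne1, E2f1, Mcm5, Gins2, Uhrf1 and Chaf1b, and lie close together for Mcm7, Rrm1 and Pcna; 1 vehicle point, replicate 15, lies far above the other vehicle animals in E2f1, Gins2, Uhrf1, Chaf1b and Rrm2.

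The promoters of Mcm5, Mcm6 and Mcm7 are shown because these encode parts of 1 ring and hold the E2F motif before a RefSeq start. Of these, only Mcm5 and Mcm6 were called. Mcm6 and Mcm7 were added to the display after their values had been seen. Each sequence is the 250 bases before the start of the RefSeq transcript on GRCm38.p6, 5′ to 3′ on the strand of the gene, with matches to the motif on either strand in capitals. The windows are chr8:75109259-75109508 (plus strand) for Mcm5, chr1:128359706-128359955 (minus strand) for Mcm6 and chr5:138171884-138172133 (minus strand) for Mcm7.
Mcm5: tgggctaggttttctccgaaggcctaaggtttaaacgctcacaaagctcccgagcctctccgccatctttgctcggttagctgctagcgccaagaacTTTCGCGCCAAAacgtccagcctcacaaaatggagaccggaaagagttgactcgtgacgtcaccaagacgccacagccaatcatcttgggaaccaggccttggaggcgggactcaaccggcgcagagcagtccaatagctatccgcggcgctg
Mcm6: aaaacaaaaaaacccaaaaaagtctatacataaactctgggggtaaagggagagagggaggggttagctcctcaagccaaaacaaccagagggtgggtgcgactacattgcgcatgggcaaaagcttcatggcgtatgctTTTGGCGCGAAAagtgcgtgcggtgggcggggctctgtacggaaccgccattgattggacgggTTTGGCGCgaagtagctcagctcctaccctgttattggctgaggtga
Mcm7: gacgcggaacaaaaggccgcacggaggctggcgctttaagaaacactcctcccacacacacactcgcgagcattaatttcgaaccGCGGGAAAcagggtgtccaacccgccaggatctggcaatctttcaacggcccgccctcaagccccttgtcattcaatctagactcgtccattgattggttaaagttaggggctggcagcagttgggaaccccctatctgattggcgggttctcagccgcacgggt

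The capitals in Mcm5 are 2 matches on opposite strands that overlap, at 153 to 146 and 149 to 142 bases before the start. Mcm6 holds an overlapping pair of the same kind at 110 to 103 and 106 to 99 bases before the start, and 1 more match at 47 to 40 bases. In the window shown, Mcm7 holds 1 match on the other strand at 165 to 158 bases before the start. A second lay in the first 50 bases after it, outside the sequence printed. Mcm7 has another RefSeq start, and the 250 bases before that start (chr5:138171267-138171516) held 0 matches. The forms searched were TTTCCCGC, TTTCGCGC, TTTGCCGC and TTTGGCGC on both strands, in windows of 250 bases before to 50 bases after each start. At least 1 form was found for 13 of the 31 members with a window (41.9%), against 2.605% of all 27025 genes with a window. In only the 250 bases before the start, the shares were 25.8% of members and 2.157% of genes. By gene, 6 of 14 called members with a window held a match in the whole window, and so did 5 of 15 tested members that were not called. Before the start the counts were 3 of 14 and 3 of 15. In Cdt1, Lig1 and the ring gene Mcm3, further called genes with a match, it lay after the start, outside the stretch printed for other genes. The match was at 33 to 40 bases in Cdt1 and 27 to 34 bases in Lig1. Mcm3 held matches at 20 to 27 and 39 to 46 bases. CCAAT, the letters bound by the factor NF-Y, was found in 61.3% of members and 41.058% of genes. The cell cycle element TTTGAA or TTCGAA was found in 22.6% of members and 21.661% of genes. Some of these searched stretches overlap each other, a match is only a match of letters, and no window was used here for Mcm4, Ccne2, Gins1, Gins2 and Pole.

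Among the polymerases, 1 of 4 tested genes was called higher. Pole, the catalytic subunit of polymerase epsilon, which copies the leading strand (chromosome 5, 110286306 to 110337474), was at 0.890, 2.37 and 8.33 CPM in zileuton livers, against 0.615, 1.51 and 5.99 CPM in vehicle livers. In 43 of 49 zileuton animals it lay above the vehicle median, and only 1 exceeded all vehicle animals (log2 fold change 0.64 ± 0.13 SE, edgeR adjusted p = 2.73e-05). Pold1, the catalytic subunit of polymerase delta, which copies the lagging strand, lay at −0.14 ± 0.064 (SE, edgeR adjusted p = 0.0879), with 14 of 49 zileuton animals above the vehicle median. Pola1 and Prim1, of the enzyme that lays the first primers, were at 0.11 ± 0.064 and −0.036 ± 0.087 (SE, edgeR adjusted p = 0.214 and 0.795). Within an animal, Pole over Pold1 differed by 0.76 on the log2 scale, another pair chosen after its values had been seen.

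The sliding clamp and the enzymes that finish the lagging strand mostly did not pass the test. Lig1, the ligase that seals the fragments (chromosome 7, 13277283 to 13311433), was at 1.88, 3.92 and 9.72 CPM in zileuton livers, against 1.92, 3.12 and 9.14 CPM in vehicle livers. In 38 of 49 zileuton livers it exceeded the vehicle median, and it was the only gene called among the 6 of this role (log2 fold change 0.34 ± 0.10 SE, edgeR adjusted p = 0.0064). Pcna, the clamp itself and a common marker of S phase (chromosome 2, 132249162 to 132253314), was at 14.04, 18.04 and 30.4 CPM in zileuton livers, against 12.2, 16.9 and 22.5 CPM in vehicle livers. The groups overlapped broadly and Pcna did not pass (log2 fold change 0.12 ± 0.052 SE, edgeR adjusted p = 0.0686), although it was the most abundant member per kilobase of exon in both groups, at medians of 7.52 CPM per kb in zileuton and 7.02 CPM per kb in vehicle livers. Fen1, which removes the primer flap, was at 0.19 ± 0.084 (SE, edgeR adjusted p = 0.0802), and Rfc3, Rfc4 and Rfc5, subunits of the clamp loader, lay between −0.052 and −0.0094.

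Of the genes that supply nucleotides, 1 of 4 was called. Rrm2, the subunit of ribonucleotide reductase made in S phase (chromosome 12, 24708241 to 24714146), was at 0.922, 2.80 and 20.1 CPM in zileuton livers, against 0.875, 2.03 and 8.46 CPM in vehicle livers. The upper end was wide, with 5 zileuton animals above all vehicle animals, and 36 of 49 lay above the vehicle median (log2 fold change 0.85 ± 0.20 SE, edgeR adjusted p = 4.92e-04). Rrm1, its partner subunit, was at 0.12 ± 0.056 (SE, edgeR adjusted p = 0.0929), Tyms, which makes thymidylate, at 0.14 ± 0.074 and Tk1, thymidine kinase, at 0.027 ± 0.087. The log2 ratio of Rrm2 to Rrm1 averaged −1.71 ± 0.80 in zileuton and −2.25 ± 0.67 in vehicle livers (SD, n = 49 and 41). This pair too was chosen after its values had been seen, so the ratio is a description without a test.

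All 3 genes that copy chromatin behind the fork were called higher. Uhrf1, which reads half-methylated DNA and recruits the methyltransferase Dnmt1 (chromosome 17, 56303321 to 56323486), was at 0.134, 0.941 and 8.36 CPM in zileuton livers, against 0.0309, 0.384 and 3.89 CPM in vehicle livers. Zileuton replicate 4 and vehicle replicate 15 held the maxima, with the next zileuton animal at 4.33 CPM and the next vehicle animal at 1.56 CPM, and 43 of 49 zileuton animals lay above the vehicle median. The log2 fold change was 1.34 ± 0.25 (SE, 2.53-fold, edgeR adjusted p = 1.32e-05). Chaf1b, a subunit of the histone chaperone CAF-1 (chromosome 16, 93883901 to 93906115), was at 0.480, 2.53 and 5.82 CPM in zileuton livers, against 0.146, 0.948 and 5.93 CPM in vehicle livers. No zileuton animal exceeded vehicle replicate 15, but 45 of 49 lay above the vehicle median (log2 fold change 1.07 ± 0.17 SE, edgeR adjusted p = 5.36e-07). Chaf1a, the large CAF-1 subunit, rose by 0.86 ± 0.14 (SE, edgeR adjusted p = 4.07e-07), and shares 4648 exonic bases with Ubxn6 on the other strand.

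Uhrf1 is the member with the second largest change, and its promoter is shown because the motif lies before 1 of its 2 RefSeq starts. The window before that start is chr17:56304063-56304312 (plus strand, GRCm38.p6), with the match in capitals at 185 to 178 bases before the start.
Uhrf1: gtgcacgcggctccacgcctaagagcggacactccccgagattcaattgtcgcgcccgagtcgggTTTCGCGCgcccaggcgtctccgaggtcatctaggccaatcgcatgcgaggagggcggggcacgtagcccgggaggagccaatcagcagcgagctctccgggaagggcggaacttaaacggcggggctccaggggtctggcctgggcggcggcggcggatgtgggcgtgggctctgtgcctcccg
Dnmt1, the methyltransferase that Uhrf1 recruits, was at 7.01, 9.12 and 14.1 CPM in zileuton livers, against 7.64, 9.68 and 13.8 CPM in vehicle livers, and did not pass (log2 fold change −0.095 ± 0.043 SE, edgeR adjusted p = 0.0878). The log2 ratio of Uhrf1 to Dnmt1 averaged −3.10 ± 0.93 in zileuton and −4.32 ± 0.85 in vehicle livers (SD, n = 49 and 41). It is likewise a pair chosen after its values had been seen, given as a description without a test.

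Other genes of replication and of its checkpoints were called higher more often than lower. Of 59 listed, 52 were tested, 19 were called higher (36.5%) and 2 lower (3.85%), with a median log2 fold change of 0.060. Among all genes tested, 14.4% were called higher and 14.8% lower. Chek1, the checkpoint kinase of S phase, had medians of 0.632 CPM in zileuton and 0.306 CPM in vehicle livers (log2 fold change 1.12 ± 0.17 SE, edgeR adjusted p = 8.51e-08). Called lower were Dna2, a nuclease of the lagging strand, at −0.35 ± 0.074 (SE), with 40 of 49 zileuton animals below the vehicle median, and Orc3, a core subunit of the origin recognition complex, at −0.11 ± 0.034 (edgeR adjusted p = 1.44e-04 and 0.0122).

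The controls of the step into S phase were called higher more often than lower. Of 29 genes tested, 10 were called higher (34.5%, beside 14.4% of all genes tested), with a median log2 fold change of 0.060. Called lower were 3, Cdkn1b, Fbxw7 and E2f4 (10.3%, beside 14.8% of all genes tested). Ccna2, cyclin A2, had medians of 1.82 CPM in zileuton and 0.945 CPM in vehicle livers (log2 fold change 1.38 ± 0.23 SE, edgeR adjusted p = 1.09e-06), and Myc, a driver of cell growth, rose by 0.65 ± 0.16 (edgeR adjusted p = 0.00127). Cdkn1b, the inhibitor p27, had medians of 16.8 CPM in zileuton and 19.01 CPM in vehicle livers (−0.13 ± 0.038 SE, edgeR adjusted p = 0.00489). Fbxw7, which marks cyclin E for destruction, fell by 0.13 on the log2 scale (edgeR adjusted p = 0.00271), with 45 of 49 zileuton animals below the vehicle median. Ccnd1, cyclin D1, did not pass, with medians of 36.04 CPM in zileuton and 38.3 CPM in vehicle livers (0.013 ± 0.17 SE, edgeR adjusted p = 0.965). Cdkn1a, the inhibitor p21, spanned 0.595 to 100 CPM in zileuton and 1.20 to 54.6 CPM in vehicle livers and did not pass (−0.21 ± 0.34 SE, edgeR adjusted p = 0.692).

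Genes of mitosis, in which the copied chromosomes are parted, were mostly called higher. Of 48 listed, 43 were tested and 38 were called higher (88.4%, beside 14.4% of all genes tested), with a median log2 fold change of 1.48. In the same test 0 were called lower, with 0 at an unadjusted p under 0.05 and 0 by DESeq2 or limma-voom. Pbk, a mitotic kinase, was at 2.49 ± 0.34 (SE), Ccnb1, cyclin B1, at 2.39 ± 0.41 and Mki67, the proliferation marker Ki-67, at 1.61 ± 0.25 (edgeR adjusted p at most 2.27e-06). Summed over the list, mitosis genes reached 32.6, 70.7 and 602 CPM in zileuton livers, against 27.9, 44.8 and 230 CPM in vehicle livers. Mcm2 to Mcm6 together reached 10.8, 22.2 and 87.5 CPM in zileuton livers, against 11.03, 16 and 43.2 CPM in vehicle livers. Zileuton replicate 45 had the second highest helicase sum, at 50.2 CPM, with a mitosis sum of 63.9 CPM, below the zileuton median. Zileuton replicate 7, with a helicase sum of 47.8 CPM, had the highest mitosis sum of all animals.

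**Figure D3:**
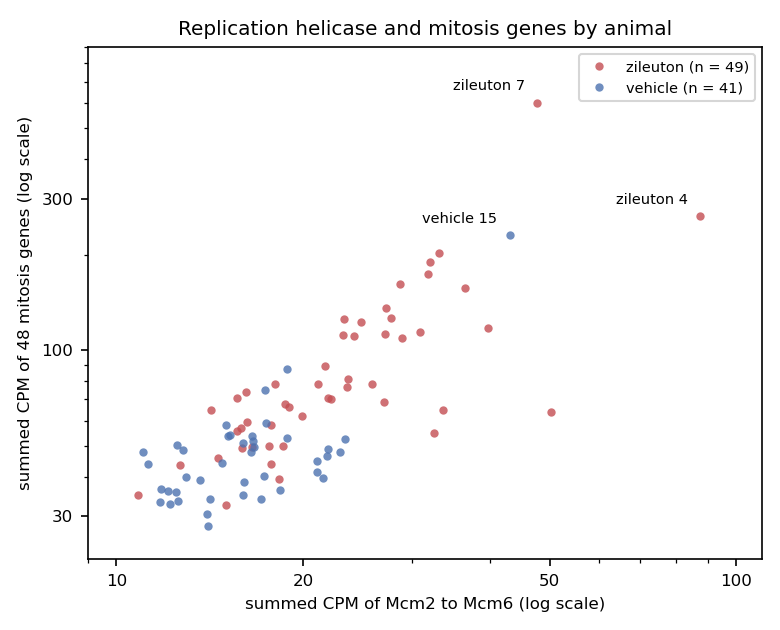
Each point is 1 animal, with the summed CPM of Mcm2 to Mcm6 on the x axis and of 48 mitosis genes on the y axis, both on log scales. Most vehicle animals lie at the lower left and the zileuton animals spread from there to the upper right, with vehicle replicate 15 among the high zileuton animals.

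Zileuton animals had 6 to 18 of the 18 called members above the vehicle median, with a median of 17, and vehicle animals had 1 to 18, with a median of 9. In 38 of 49 zileuton and 6 of 41 vehicle animals, at least 14 called members exceeded the vehicle median. These counts describe members chosen by the test itself and carry no test of their own. Leaving out vehicle replicate 15 and zileuton replicates 4 and 7, a choice made after seeing the data, left 18 members called higher, with Uhrf1 at 1.33 and Mcm5 at 0.84, and 1 called lower, Pold1 at −0.16 (edgeR adjusted p = 0.0494). In that fit 35 mitosis genes, 18 other replication genes and 10 genes of S phase entry were called higher. The spread between animals around the group median was tested for 30 members with limma, and 0 differed between groups (0.0337% of all 11857 genes tested were called). Under zileuton 22 of the 30 were wider, 2 of them at an unadjusted p under 0.05. Ccne1, Uhrf1, Gins2 and Ccne2 were too scarce for this test. Under the filter of the main test they did not differ either (limma adjusted p at least 0.889).

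**Figure D4:**
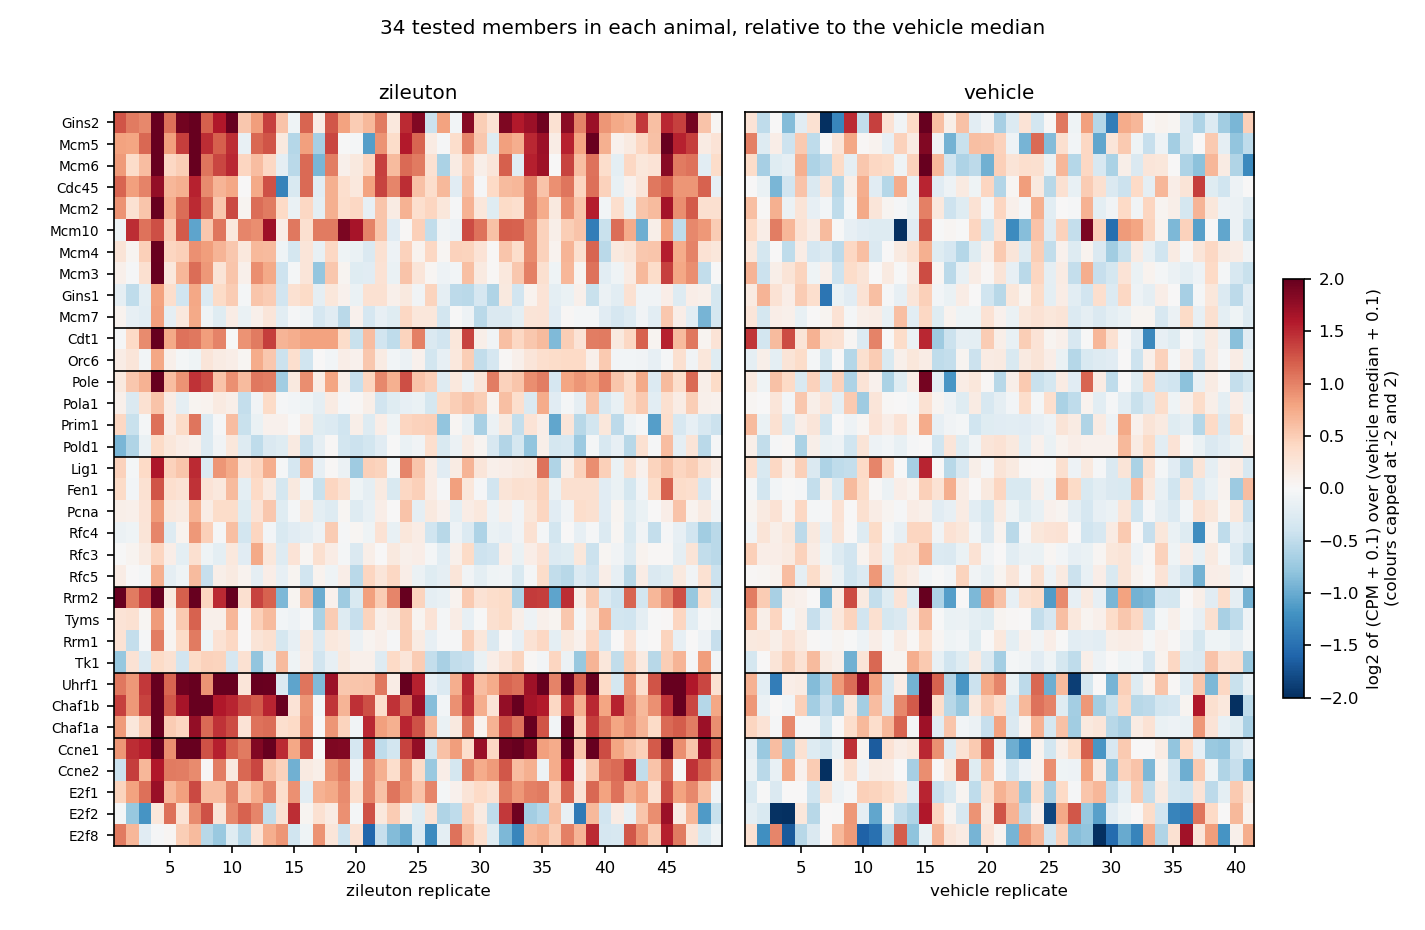
Every tested member (rows, by role) in every animal (columns), as log2 of CPM + 0.1 over the vehicle median + 0.1, with zileuton left and vehicle right. Red columns cross many rows in zileuton replicates 4 and 7 and vehicle replicate 15, and the rows of Mcm7, Gins1, Pold1 and the Rfc genes stay pale in most animals.

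Animal numbers fall into 8 runs of 50 that the labels do not explain, and each run held both groups. Within runs, the difference in mean log2(CPM + 0.5) was above 0 for all 18 called members in 5 of the runs. It was above 0 for 17 of them in runs 6 and 7. These members were called on the same animals, so their signs within runs are descriptions without a test. Run 5 held only 2 zileuton animals. In run 3, with 8 zileuton and 5 vehicle animals, 8 of 18 lay above 0, and the median difference was −0.080. That run holds vehicle replicate 15, without which 16 of 18 lay above 0 with a median of 0.25. That library was singled out for its high values in these same members, so the rise without it is no test. Ccne1 was higher in all 8 runs, by 0.32 to 0.97, and E2f1 by 0.32 to 0.96. Uhrf1 was higher in 7 runs, between −0.26 and 1.44. The interaction of treatment with run passed for 0 members in edgeR, with 8 at an unadjusted p under 0.05 (Uhrf1 lowest, adjusted p = 0.117), while 0.189% of all genes tested were called and 11.2% had an unadjusted p under 0.05. Between runs, with treatment in the model, Pcna differed (edgeR adjusted p = 0.0385, beside 1.02% of all genes). Mcm2, Cdt1, Rfc4, Rrm2 and E2f2 were also at an unadjusted p under 0.05 in that test, beside 13% of all genes. The interaction with coat colour passed for 0 members in edgeR and 0.0% of all genes, with 1 member, Pola1, and 5.56% of all genes at an unadjusted p under 0.05. Agouti animals numbered 34 zileuton and 29 vehicle, black animals 6 and 6, and white animals 9 and 6. With so few black and white animals, a difference in effect could have been missed.

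**Figure D5:**
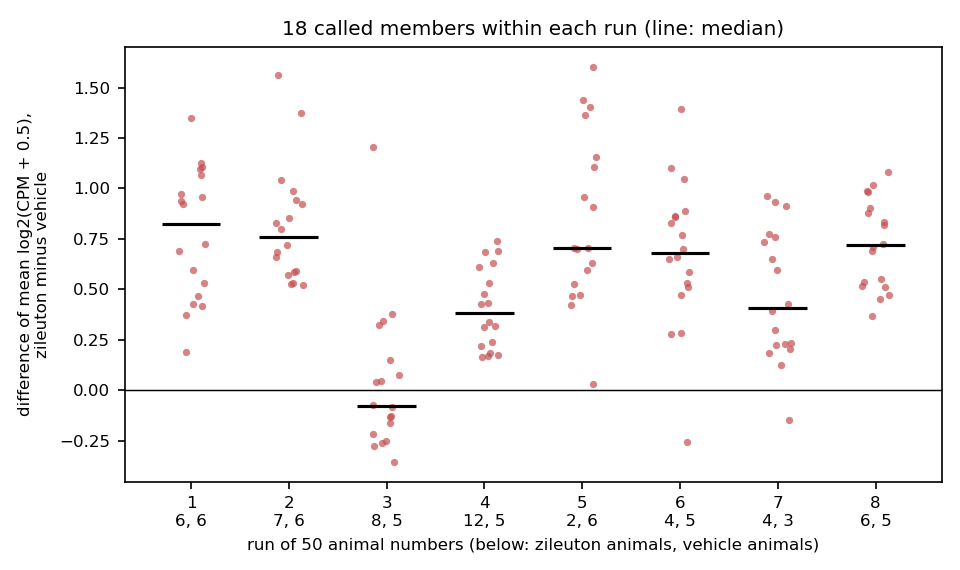
Difference in mean log2(CPM + 0.5), zileuton minus vehicle, within each run of animal numbers, with a point for each of the 18 called members and a line at their median. The axis gives the number of zileuton animals and then vehicle animals in each run; run 3 is centred near 0 and the other runs have medians between 0.38 and 0.82.

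The position of an animal number within its run and the level of clock genes both differed between the groups. Within a run, zileuton animals held positions 25 to 50 and vehicle animals positions 13 to 20, so position and treatment cannot be told apart. With position as a term, 3 members were called higher (Cdc45, Rrm2 and Chaf1b), and 217 genes in all. The standard errors of the 18 members called without it were then 2.09 times as large in the median, and the median log2 fold change was 0.63 with position and 0.70 without. Of these members 17 stayed above 0 and 5 had a larger fold change than before, such as Mcm5 at 1.02 and Mcm6 at 0.95, while Mcm10 stood at −0.075. A score of 16 clock genes, those of the Per and Rev-erb phase minus those of the Bmal1 phase, was at −2.15, 1.28 and 3.02 in zileuton livers, against −2.90, −1.58 and 2.62 in vehicle livers. All 11 genes of the first kind were called higher and all 5 of the second lower. With the score as a term, E2f1 was the only member called (log2 fold change 0.44 ± 0.12 SE, edgeR adjusted p = 0.0301), and 386 genes in all, while Ccne1 stood at 0.88 (adjusted p = 0.0551) and Cdt1 at 0.00014 (adjusted p = 1.0). The median log2 fold change of the 18 members was 0.42 with the score, all 18 were smaller than without it, and the standard errors were 1.31 times as large in the median. The score overlapped between the groups, with 42 of 49 zileuton and 5 of 41 vehicle animals above 0. Its part in the result was not tested beyond this fit.

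Markers of other liver cells are given beside the members, and their part in the result was not tested. Kupffer cell markers summed to 105, 264 and 654 CPM in zileuton livers, against 62.0, 298 and 996 CPM in vehicle livers, with 0 of 12 called in either direction by edgeR, DESeq2 or limma-voom and 0 at an unadjusted p under 0.05. Lymphocyte markers summed to 3.02, 6.77 and 16.6 CPM in zileuton livers, against 3.59, 8.39 and 34.5 CPM in vehicle livers. Of these, 2 of 10 tested were called lower. Neutrophil markers summed to 0.304, 1.97 and 11.9 CPM in zileuton livers, against 0.278, 1.56 and 93.6 CPM in vehicle livers. Of 10 listed, 8 were too scarce to test. Of the 2 tested, 1 was called lower. The other was higher at a log2 fold change of 0.88 but did not pass (edgeR adjusted p = 0.088). Erythroid markers summed to 109, 288 and 786 CPM in zileuton livers, against 88.5, 321 and 1140 CPM in vehicle livers, with 0 of 7 called by edgeR and 1 higher at an unadjusted p under 0.05 and by DESeq2. Of hepatocyte markers 6 of 10 (60.0%) were called lower and 1 higher. Of endothelial markers 2 of 9 (22.2%) were called lower, and of bile duct markers 1 of 5 (20.0%). Of stellate cell markers 2 of 8 (25.0%) were called lower and 1 higher. Among all genes tested, 14.8% were called lower and 14.4% higher.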

How the data were processed

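Liver RNA of 90 mice, 1 library per animal, was sequenced on an Illumina HiSeq instrument after TruSeq RNA library preparation, per the labels. The authors deposited estimated counts per gene symbol, of which 76.7% were whole numbers, and a normalized signal per gene, which is the deposited count rounded and divided by 1 size factor per library (largest relative deviation 1.4e-06). Partek, STAR and DESeq2 are named in the submitters' processing notes, with the build mm10. Which counter, annotation and strand setting were used is not given in the sources used here. Coordinates and exon lengths (all annotated exons of a gene joined) come from GENCODE M21, which held 36 of 36 members, and promoter windows from RefSeq, which held 31.

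Estimated counts were rounded and fitted with edgeR 4.0.16 in R 4.3.3 (TMM factors, filterByExpr, robust quasi-likelihood F test, two-sided), with groups from the labels and p-values adjusted over all 13248 genes tested. CPM use the same factors. The biological coefficient of variation was 32.1%, as 1 value over all genes tested. At these depths the spread between animals, more than counting error, set the precision for the more abundant genes. Counting error also weighed on scarce members. Ccne1, Uhrf1, Gins2 and Ccne2 had medians of 5, 10, 11 and 12 estimated counts per vehicle library. The fit was first tested on simulated data. Spread was tested with limma 3.58.1 (log2 CPM, prior count 2), and runs and coat colour with edgeR F tests. Alternatives were DESeq2 1.42.0, limma-voom, other scalings and filters, covariates, and leaving out libraries or runs.

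In each role group, values by group are printed for the 2 called members with the largest change, and always for Pcna, Ccne1, E2f1, E2f8 and Mcm2. Mcm7 was added after its values were seen. In the other lists the 2 genes with the largest called change in each direction, Cdkn1a, Ccnd1, Dnmt1 and Mki67 are named, except that 1 gene is not reported here. E2f4 was named to complete a count, after its values were seen. Members, lists and tests were chosen with earlier results of these data known.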

Additional observations from a re-analysis of the deposited data

How the results depend on the processing

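The count of 18 members called higher stayed between 14 and 21 under other scalings, filters, tools, the authors' values, run, coat colour or library total as a term, agouti animals alone, and without any run or the 9 libraries of lowest total. It was 18 to 20 when each library was left out in turn. Members near the threshold included Orc6 and Pcna. With run as a term both passed (edgeR adjusted p = 0.0374 and 0.0298), and Orc6 also passed in DESeq2 (adjusted p = 0.0468). With 1 library left out, their lowest edgeR adjusted p were 0.0353 and 0.0435. With position within the run as a term it was 3, and with the clock score 1, with median log2 fold changes of the 18 members of 0.63 and 0.42 and standard errors 2.09 and 1.31 times as large. Other replication genes called higher then numbered 2 and 4, and genes of S phase entry 1 and 4. The counts of mitosis genes with these terms are not given here. Leaving out single libraries gave 18 to 21 other replication genes, 10 to 10 genes of S phase entry and 37 to 39 mitosis genes. With a mean CPM of at least 1, 23 mitosis genes were called, since fewer were tested. Members called lower numbered 1 (Pold1) without run 1, without run 8, and without the 3 libraries that stood apart, and 0 to 1 when each library was left out in turn. The E2F motif was in 25.8% of members and 2.157% of genes when only the 250 bases before the start were searched.

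Changes of sign were limited to members not called, apart from Mcm10. With position as a term the log2 fold changes were 0.13 for Mcm7, −0.075 for Mcm10, −0.26 for Pola1, 0.15 for Prim1, 0.073 for Rfc3, 0.12 for Rfc4 and 0.060 for Rfc5. With the clock score they were 0.019 for Mcm7, −0.010 for Mcm10, −0.0083 for Gins1, −0.0090 for Pola1, 0.10 for Prim1 and −0.22 for Tk1. Gins1 was −0.052 without run 2 and −0.00691 without the 3 libraries that stood apart. Prim1 was 0.00588, 0.0248 and 0.00255 without runs 3, 6 and 8. Rfc3 was 0.00761 without the 9 libraries of lowest total and 0.011 and 0.0031 without runs 1 and 6. Rfc4 was 0.0049 with DESeq2, 0.0069 with run as a term, 0.018 without the 9 libraries, and 0.026, 0.015, 0.0042 and 0.0034 without runs 3, 4, 5 and 6. Tk1 was −0.038 in agouti animals and −0.000665 and −0.00145 without runs 5 and 6. Over single libraries left out, Rfc3 ran from −0.038 to 0.00034 and Rfc4 from −0.041 to 0.0062. The causes were not tested.

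No paired analysis was possible because each library is a separate animal and replicate numbers only name animals within a group. Members at a few counts per library, such as Orc1, Cdc6 and Ccne1, are limited by depth.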
